A study of Mus musculus with 18 samples.

Results

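The 10 genes described here encode the core machinery that writes and reads methylation of lysine 9 of histone H3 (H3K9). They were chosen by name, for the proteins they encode, and make up 10 of the 32285 genes counted in single-cell RNA-seq libraries of GFP-positive cells from the mouse ileum. 4 are SETDB1 and its relatives or partners, namely Setdb1 itself, its paralogue Setdb2 and the cofactors Trim28 and Atf7ip. 4 are the other H3K9 methyltransferases Suv39h1, Suv39h2, Ehmt1 and Ehmt2, and 2 are the readers Cbx5 and Cbx3.

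The study asked what loss of Setdb1 does to the Lgr5+ stem cells of the intestinal crypt and to their descendants. All mice were male, of the C57Bl6 background and 60 to 65 days old, and all carried the Lgr5-GFP-CreERT2 knock-in allele. All received intraperitoneal tamoxifen at 70 mg/kg and were analysed 5 days after treatment. In the Lgr5+ experiment the WT group had Lgr5-GFP-CreERT2 alone and the Setdb1-KO group also had Setdb1lox/lox, in which exon 3 is flanked by lox sites. In the lineage-traced experiment both groups additionally carried nTnG, a reporter at the ROSA locus that changes from nuclear tdTomato to nuclear EGFP once Cre has acted, so that stem cells and their progeny stay labelled. Each of the 4 groups held 2 libraries, which the study describes as biological replicates. Several features limit the groups as models. Cre is made only where the Lgr5 locus is active, the knock-in allele is known to be expressed in a mosaic, GFP in the Lgr5+ experiment comes from the same locus as Cre, and the control mice carry Cre and received tamoxifen as well. The total RNA-seq, H3K9me3 and chromatin accessibility samples of the series were not used here.

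Methylated H3K9 marks silent chromatin. SETDB1 places trimethyl marks on retrotransposons and selected genes after TRIM28 (KAP1), which is carried to DNA by KRAB zinc finger proteins, recruits it, while ATF7IP keeps SETDB1 in the nucleus and protects it from degradation. SUV39H1 and SUV39H2 trimethylate H3K9 in the constitutive heterochromatin around centromeres, EHMT1 (GLP) and EHMT2 (G9a) form a heterodimer that places mono- and dimethyl marks in euchromatin, SETDB2 is a little studied relative of SETDB1, and the heterochromatin proteins CBX5 (HP1 alpha) and CBX3 (HP1 gamma) bind the methylated lysine.

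The floxed segment of Setdb1 matters to how the counts can be read, so its sequence is shown. In GRCm38 (mm10), Setdb1 (ENSMUSG00000015697) lies at chr3:95323525-95357202 on the minus strand, and exon 3 of its principal transcripts, all of it coding, lies at chr3:95354542-95354693. It holds 152 bases, which leaves a remainder of 2 when divided by 3, so that its removal shifts the reading frame.

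Setdb1 exon 3: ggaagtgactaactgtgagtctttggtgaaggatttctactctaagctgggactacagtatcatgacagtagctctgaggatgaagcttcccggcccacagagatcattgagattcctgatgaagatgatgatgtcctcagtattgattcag

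In the 3 protein-coding transcripts of the annotation, 4060 to 4063 transcript bases follow exon 3. The libraries were counted from the 3' ends of transcripts, so a transcript without exon 3 could still be counted, and the Setdb1 UMI count (UMI, unique molecular identifier, the tag that marks 1 captured RNA molecule) is a measure of the amount of Setdb1 RNA and no check of the deletion.

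Total UMI counts ran from 16881518 to 81876035 per library, and 2894 to 11423 barcodes per library were kept as cells. The median UMI count per kept barcode lay between 4686 and 9336 in the Lgr5+ libraries and between 961 and 2085 in the lineage-traced ones. Any 2 libraries shared between 3 and 34 kept barcodes. The lineage-traced libraries differed from each other in ways that touch the results. Paneth cell markers made up 32.3% and 29.6% of the kept UMIs of the WT libraries, against 7.0% and 4.72% in the libraries labelled Setdb1-KO. Free RNA was read from barcodes under 100 UMIs. Kept barcodes of no cell class were counted as near free RNA if their Paneth marker share was at least 50% of that in free RNA. The count rests on Paneth markers and does not compare whole profiles. Such barcodes made up 50.7% of WT replicate 2, against 6.6% to 18.1% in the other 3 and at most 0.553% in the Lgr5+ libraries. T cell-like cells numbered 60 in the Lgr5+ experiment and 15 in the lineage-traced one, and no barcode was stromal or endothelial by its markers.

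Setdb1 was lower in the Setdb1-KO group of the Lgr5+ experiment. Over all kept cells it was counted at 11.3 and 9.93 CPM (counts scaled to a common total per library) in the WT libraries, from 437 and 412 UMIs, and at 5.32 and 6.21 CPM in the Setdb1-KO libraries, from 147 and 381 UMIs. Both WT libraries lay above both Setdb1-KO libraries. The fitted log2 fold change was -0.85 (SE 0.14, 95% interval -1.17 to -0.53, n = 2 libraries per group), which put the Setdb1-KO level at 55.5% of the WT level, with an edgeR quasi-likelihood adjusted p of 0.0167. By that p-value Setdb1 ranked 142 among the 13662 genes tested, of which 367 (2.69%) passed. The call was lost without WT replicate 1 (adjusted p = 0.151) and without WT replicate 2 (adjusted p = 0.118), when 1 WT library was left, while the fold change stayed at -0.82 and -0.89. An exact permutation test of 2 against 2 libraries cannot give a two-sided p below 0.33, which is the value it gave. In bulk sums like these, fewer cells that express a gene and less RNA per cell cannot be told apart.

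A smaller share of cells held a Setdb1 UMI at equal depth in both Setdb1-KO libraries than in either WT library. At levels this low the share falls with the CPM, so it cannot tell fewer expressing cells from less RNA per cell either. With every cell thinned to 2000 UMIs, which left out the shallower cells (2842 to 10882 cells per library remained), 1.87% and 2.02% of WT cells held a Setdb1 UMI, against 1.13% and 1.36% of Setdb1-KO cells. The 95% exact (Clopper-Pearson) intervals, which cover counting error only, were 1.5% to 2.3% and 1.68% to 2.41% in WT and 0.771% to 1.59% and 1.15% to 1.60% in Setdb1-KO. The interval of WT replicate 1 overlapped both Setdb1-KO intervals, and that of WT replicate 2 lay above them. Without thinning the group means were 7.44% and 4.07%. In enterocyte-like cells, where the level was low, 0 of 111 and 2 of 264 WT cells and 1 of 304 and 4 of 597 Setdb1-KO cells held one, and the 0 of 111 allows up to 3.27% of cells with a Setdb1 UMI at this depth by its exact interval, which sets no limit on the share of cells that express the gene. At 1000 UMIs per cell, the shares in the lineage-traced experiment were 0.802% and 0.422% in WT and 0.947% and 0.85% in the libraries labelled Setdb1-KO, with intervals that overlapped. Enterocyte-like cells there gave 5 of 707 and 1 of 245 in WT and 1 of 33 and 0 of 178 in the libraries labelled Setdb1-KO. Their intervals include the shares of all cells, but so few cells with a UMI cannot show whether enterocyte-like cells differ. Free RNA, read from barcodes under 100 UMIs, held Setdb1 at 2.38 to 3.88 CPM in the 4 Lgr5+ libraries, below the level over all kept cells in each of them. Some class levels were at or below it, as in enterocyte-like cells of Setdb1-KO replicate 1 (2.32 CPM) and Paneth-like cells of WT replicate 2 (2.91 CPM).

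None of the 9 other genes was called between the Lgr5+ groups. Their log2 fold changes ran from -0.24 to 0.24, and 1 of 10 genes was called against a background of 2.69% of all genes. Among the partners, Trim28, the corepressor that brings SETDB1 to its targets, was counted at 62.8 and 51.4 CPM in WT and 61.7 and 53.6 CPM in Setdb1-KO, with overlapping groups (log2 fold change 0.03, SE 0.09, interval -0.17 to 0.22). Atf7ip, which stabilises SETDB1, was counted at 26.4 and 24.0 CPM in WT and 31.9 and 27.1 CPM in Setdb1-KO. Both Setdb1-KO libraries lay above both WT libraries for Atf7ip, but the difference was not called (log2 fold change 0.24, SE 0.09, edgeR adjusted p = 0.214). The paralogue Setdb2 gave few UMIs, 112 to 209 per library, and its interval was wide (log2 fold change 0.08, interval -0.37 to 0.52).

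The same held for the other writers and the readers. Suv39h1 was counted at 12.9 and 11.1 CPM in WT and 9.63 and 10.4 CPM in Setdb1-KO, without overlap (log2 fold change -0.24, SE 0.12, edgeR adjusted p = 0.348). Suv39h2 had overlapping groups and a log2 fold change of -0.07 (interval -0.43 to 0.30). Of the heterodimer, Ehmt1 had 34.9 and 32.6 CPM in WT and 30.1 and 30.2 CPM in Setdb1-KO (log2 fold change -0.15, edgeR adjusted p = 0.435), and Ehmt2 had a log2 fold change of 0.01 with overlapping groups. Cbx5 and Cbx3 had log2 fold changes of -0.07 (interval -0.25 to 0.10) and -0.14 (interval -0.34 to 0.05). The intervals of the 9 genes reach from -0.50 to 0.52, so that a change of the size seen for Setdb1 lay outside every one of them, while smaller changes could not be told from none.

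**Figure D1:**
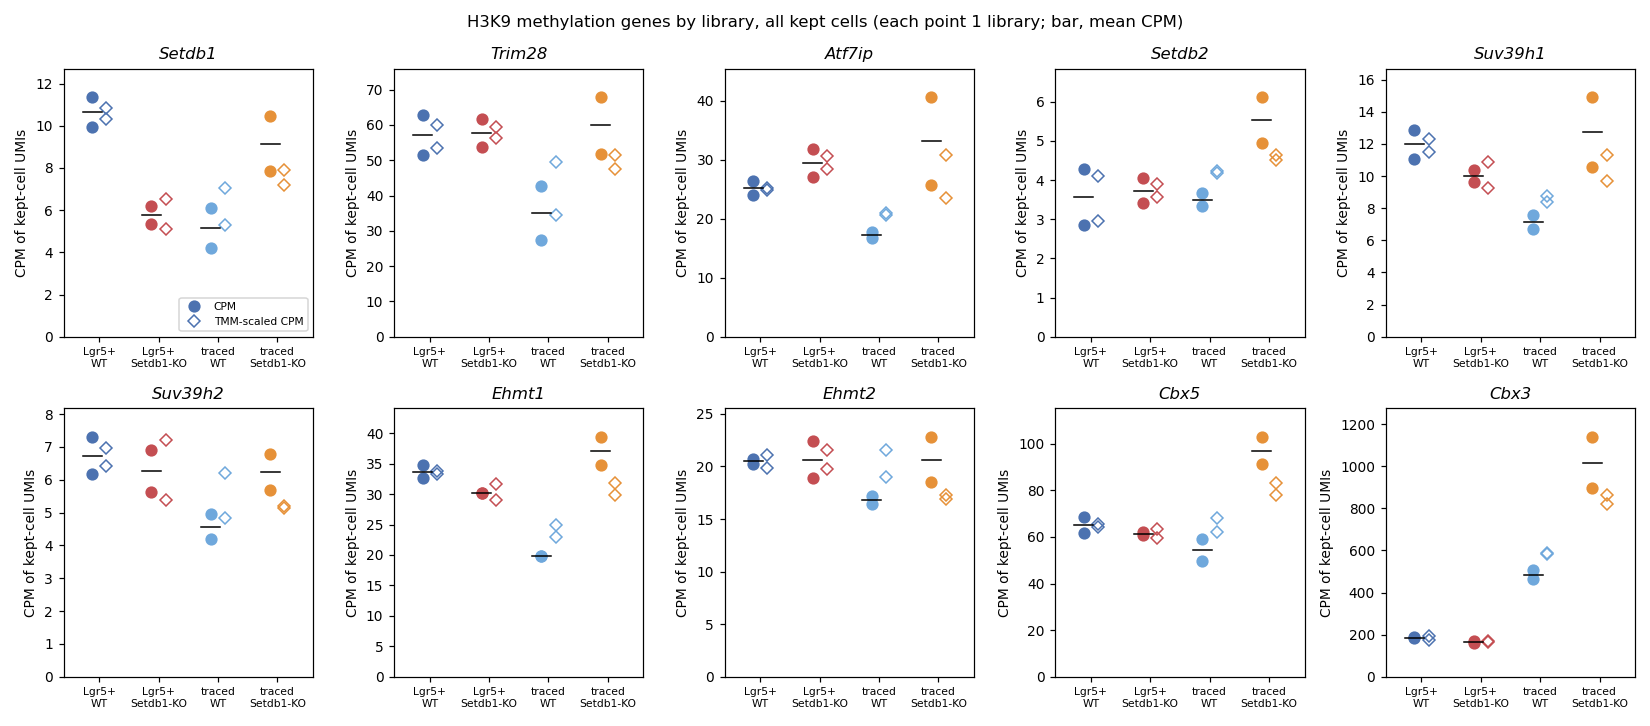
Level of each of the 10 genes over all kept cells, in CPM (vertical axis, from 0), by group (horizontal axis), with filled circles for plain CPM, open diamonds for CPM scaled by trimmed mean of M-values (TMM) and a bar at the mean CPM of the 2 libraries. Setdb1 falls from 11.3 and 9.93 CPM to 5.32 and 6.21 CPM between the Lgr5+ groups, and in the traced groups the circles and the diamonds lie apart.

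In the lineage-traced experiment Setdb1 was not lower in the libraries labelled Setdb1-KO. It was counted at 6.11 and 4.21 CPM in WT, from 117 and 34 UMIs, and at 10.4 and 7.85 CPM in the libraries labelled Setdb1-KO, from 94 and 210 UMIs. Both of the latter lay above both WT libraries. Scaling by TMM, which sets the bulk of genes level, brought the values to 7.07 and 5.28 against 7.91 and 7.17 CPM, and the fitted log2 fold change was 0.24 (SE 0.23, 95% interval -0.27 to 0.75, edgeR adjusted p = 0.607). With each of 6 cell classes given the same weight, the log2 ratio of the mean levels was 0.57, and 0.13 without enteroendocrine-like cells, which held 1 and 0 Setdb1 UMIs in WT and 2 and 3 in the libraries labelled Setdb1-KO. Free RNA held Setdb1 at 4.72 and 3.41 CPM in WT and at 4.58 and 2.10 CPM in the libraries labelled Setdb1-KO. These values were below the level over all kept cells of each library. They were closer to it in both WT libraries than in either library labelled Setdb1-KO. The 3' counts cannot show whether the RNA in these libraries lacked exon 3.

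None of the 10 genes was called in the lineage-traced experiment, against 1055 of 12205 genes (8.64%), 185 higher and 870 lower. On the TMM scale Cbx3 had 587 and 581 CPM in WT and 862 and 819 CPM in the libraries labelled Setdb1-KO, without overlap, and the largest of the 10 log2 fold changes (0.52, SE 0.32, edgeR adjusted p = 0.401). Atf7ip (log2 fold change 0.38, SE 0.22), Ehmt1 (0.37, SE 0.21) and Cbx5 (0.30, SE 0.25) also had higher values in both libraries labelled Setdb1-KO, and Ehmt2 (-0.24, SE 0.21) had lower ones. These values depend on the scaling, because with library totals in place of TMM the median log2 fold change of all genes moved to 0.54, the calls split into 3314 higher and 482 lower, and Trim28, Atf7ip, Suv39h1, Ehmt1, Cbx5 and Cbx3 were called higher. Under that scaling Cbx3 (log2 fold change 1.07), Atf7ip (0.93), Ehmt1 (0.90), Cbx5 (0.83), Suv39h1 (0.81) and Trim28 (0.76) all stood above that median, and the signs of Suv39h2 (from -0.06 to 0.45) and Ehmt2 (from -0.24 to 0.29) turned. The share of Paneth marker UMIs moved with the groups as given above, and its part in these values was not tested.

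The effect of genotype on Setdb1 differed between the experiments. In a fit of all 8 libraries the lineage-traced effect minus the Lgr5+ effect was 1.09 on the log2 scale (SE 0.27, 95% interval 0.49 to 1.68, edgeR adjusted p = 0.0305). Setdb1 was the 1 gene of the 10 that was called, against 1041 of 13781 genes (7.55%), 212 higher and 829 lower, or 2953 higher and 509 lower with library totals in place of TMM, when the median of all genes was 0.56 and 5 of the 10 were called. The next largest differences were those of Cbx3 (0.68, edgeR adjusted p = 0.183), Ehmt1 (0.54, adjusted p = 0.128) and Suv39h1 (0.51, adjusted p = 0.215). For Setdb1 the call was lost without Lgr5+ WT replicate 1 (adjusted p = 0.105), Lgr5+ WT replicate 2 (0.0795), Lgr5+ Setdb1-KO replicate 1 (0.12) or lineage-traced WT replicate 2 (0.0988), with differences of 0.92 to 1.13, and when only stem-like and dividing cells were summed (difference 1.08, adjusted p = 0.19).

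**Figure D2:**
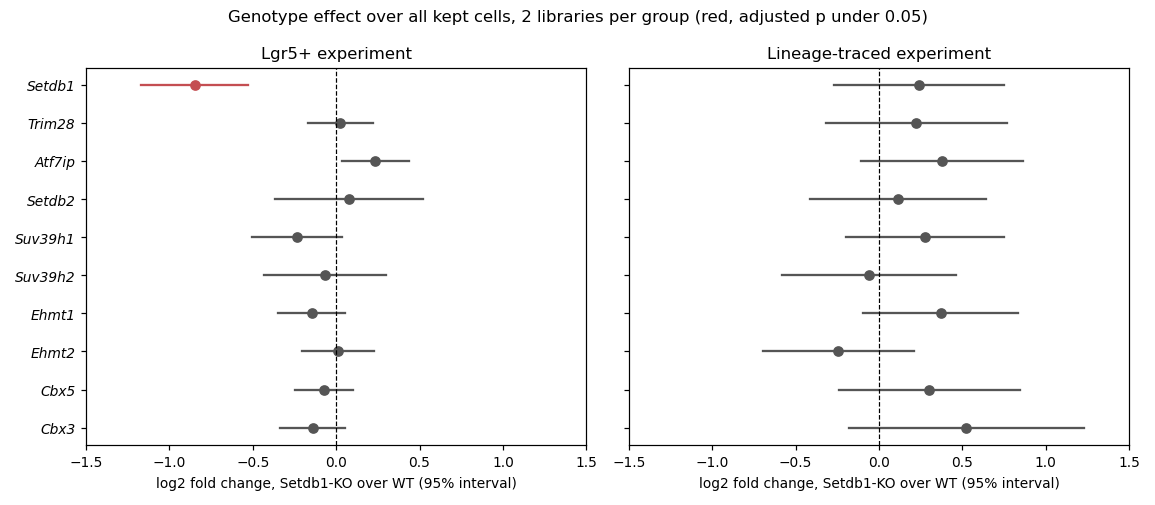
Log2 fold change of Setdb1-KO over WT over all kept cells (horizontal axis) for each of the 10 genes (vertical axis), as the edgeR estimate (point) with its 95% interval (line), for the Lgr5+ experiment on the left and the lineage-traced experiment on the right. Only Setdb1 in the Lgr5+ experiment, at -0.85, passed the threshold and is drawn in red, while its traced value is 0.24 with an interval from -0.27 to 0.75.

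Cells were placed in classes by UMIs of marker genes, none of which is among the 10, and 3624 barcodes of the Lgr5+ and 12939 of the lineage-traced experiment stayed unassigned. Class borders are cuts in a range, and 282 of 6640 stem-like and 1066 of 7862 dividing cells of the Lgr5+ experiment lay close above the cut. In the lineage-traced experiment 423 of 2789 stem-like, 572 of 3618 dividing, 293 of 1895 enterocyte-like, 703 of 3553 goblet-like and 387 of 1434 Paneth-like cells did. The Lgr5+ cut for stem-like cells, 15 marker UMIs per 10000, lay below the highest share of these markers in free RNA, 22.5 per 10000. With all cuts doubled, chosen after seeing the data for the differentiated classes, each call of a gene against stem-like WT cells was kept except that of Ehmt2 in Paneth-like cells. A library with under 20 cells of a class at the doubled cut was left out of its fit, so the libraries compared could differ too. In every class some of the marker genes stood among the 10 leading genes, as with Olfm4 and Gkn3 in stem-like cells and Top2a and Birc5 in dividing cells. Because the classes were cut on these markers, this is no check of the classes.

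In the Lgr5+ experiment the lower Setdb1 level was called in dividing cells. These held 12.3 and 10.2 CPM in WT and 5.47 and 5.85 CPM in Setdb1-KO (log2 fold change -0.96, SE 0.16, edgeR adjusted p = 0.0153), and Setdb1 was the 1 gene of the 10 called there, against 1.42% of all genes. In stem-like cells outside the dividing class, Setdb1 stood at 14.1 and 11.8 CPM in WT and 4.57 and 9.01 CPM in Setdb1-KO. The groups did not overlap, but the Setdb1-KO libraries lay far apart, and the change was not called (log2 fold change -0.79, SE 0.25, edgeR adjusted p = 0.170), with 0 of 10 genes called against 1.34% of all genes. Without Setdb1-KO replicate 2 it was -1.45 and was called (adjusted p = 0.00168), whereas the call in dividing cells was lost without Setdb1-KO replicate 1 (-0.91, adjusted p = 0.108) or 2 (-1.05, adjusted p = 0.129).

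The differentiated classes held few Setdb1 UMIs. In tuft-like cells, chemosensory cells of the epithelium, the counts were 9 and 18 UMIs in WT (16.9 and 25.8 CPM) against 4 and 8 UMIs in Setdb1-KO (5.50 and 6.02 CPM). The groups lay far apart and the estimate was the lowest of all classes, -1.84 (SE 0.53, 95% interval -2.98 to -0.70), yet it was not called (edgeR adjusted p = 0.595) in a class where 5 of 6326 genes (0.079%) were and 0 of 7 of the genes described here. Enterocyte-like cells (6.06 and 4.51 against 2.32 and 4.42 CPM, log2 fold change -0.61) and goblet-like cells (6.14 and 6.6 against 5.61 and 5.39 CPM, log2 fold change -0.19) gave smaller values with wide intervals, -1.73 to 0.50 and -0.79 to 0.41. In these classes 0 of 7 and 0 of 10 genes were called, against 0.406% and 0.439% of all genes. In Paneth-like and enteroendocrine-like cells 2 to 11 Setdb1 UMIs per library were counted and Setdb1 was not tested, and 0 of the 6 genes tested in either class was called, against 0.471% and 0.132% of all genes. A test of the difference itself, enterocyte-like and goblet-like minus stem-like and dividing cells, gave 0.55 for Setdb1 (SE 0.26, edgeR adjusted p = 0.988), and 0 of 10 genes were called against 4 of 12245 (0.0327%). By that test 623 genes had an unadjusted p under 0.05, and DESeq2 also called 4 genes and none of the 10.

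**Figure D3:**
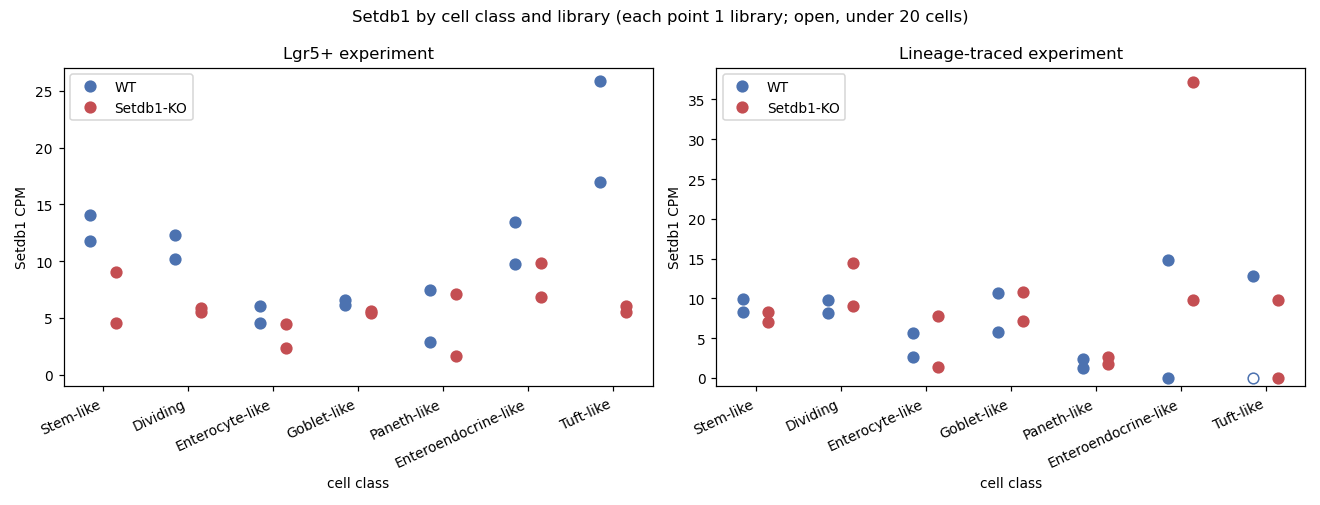
Setdb1 level in CPM (vertical axis) by cell class (horizontal axis), 1 point per library, blue for WT and red for Setdb1-KO, with the Lgr5+ experiment on the left and the lineage-traced one on the right on separate scales (open points hold under 20 cells). In the Lgr5+ experiment the red points lie below the blue ones in stem-like, dividing, enterocyte-like, goblet-like and tuft-like cells, and the traced enteroendocrine-like and tuft-like points rest on 0 to 4 UMIs each.

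In the lineage-traced classes Setdb1 showed no called change. Stem-like cells held 9.88 and 8.25 CPM in WT, from 12 and 3 UMIs, and 7.02 and 8.32 CPM in the libraries labelled Setdb1-KO, from 11 and 25 UMIs (log2 fold change -0.30, interval -1.32 to 0.72). Dividing cells held 8.20 and 9.82 CPM against 14.5 and 9.03 CPM (log2 fold change 0.40, interval -0.40 to 1.20), and goblet-like cells gave -0.17 (interval -1.01 to 0.67). Of the genes tested, 0 of 8 in stem-like, 0 of 10 in dividing, 0 of 9 in goblet-like, 0 of 4 in Paneth-like and 0 of 1 in enteroendocrine-like cells were called, against 1.27%, 1.68%, 2.54%, 1.83% and 2.96% of all genes. At this depth the interval in stem-like cells includes a drop of the size seen in the Lgr5+ experiment (-0.79). The interval in dividing cells, the class in which the Lgr5+ drop was called (-0.96), reaches down to -0.40 and does not include it.

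Among the other genes, only Ehmt1 was called within a lineage-traced class, and that call did not hold under several other settings. Ehmt1 (GLP) was counted in enterocyte-like cells at 16.3 and 18.4 CPM in WT and 38.8 and 41.8 CPM in the libraries labelled Setdb1-KO, from 5 to 30 UMIs each. It was called higher (log2 fold change 1.22, SE 0.43, edgeR adjusted p = 0.0287), the 1 call among 6 genes tested in a class where 22.2% of all genes were called. Ehmt1 was not called with DESeq2 (adjusted p = 0.248), nor without WT replicate 1, WT replicate 2 or Setdb1-KO replicate 2 (adjusted p from 0.117 to 0.617). The libraries labelled Setdb1-KO held 61 and 198 enterocyte-like cells (1.27% and 1.93% of kept cells), against 1215 and 421 (15.5% and 10.8%) in WT.

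In the lineage-traced experiment, Trim28 and Cbx3 were called in the genotype effect of enterocyte-like with goblet-like cells minus that of stem-like with dividing cells. The difference was 0.69 for Trim28 (SE 0.22, edgeR adjusted p = 0.0253) and 0.43 for Cbx3 (SE 0.14, adjusted p = 0.0284). These were 2 of 10 genes, against 7.08% of all genes. Trim28 stood at 28.1 and 6.56 CPM in WT enterocyte-like cells and 62.1 and 27.9 CPM in those labelled Setdb1-KO, but at 90.7 and 58.9 against 72.4 and 57.3 CPM in dividing cells, with groups that overlapped in both. In goblet-like cells Trim28 stood at 45.0 and 25.9 against 52.6 and 36.0 CPM, which overlapped too, and the log2 fold change was 0.12 there and 0.76 in enterocyte-like cells. Cbx3 stood at 478 and 503 against 816 and 567 CPM in goblet-like cells (log2 fold change 0.39), at 288 and 318 against 520 and 316 CPM in enterocyte-like cells (0.28), which overlapped, and at 1284 and 1391 against 1517 and 1282 CPM in dividing cells. In stem-like cells Cbx3 was higher too, at 880 to 984 against 1027 to 1240 CPM, without overlap (log2 fold change 0.23). Trim28 had -0.29 in stem-like cells, with groups that overlapped. Both calls were lost with DESeq2 (adjusted p = 0.421 and 0.398), and each was lost when 1 library was left out, except that Cbx3 was still called without Setdb1-KO replicate 2. Trim28 gave 0.59 to 1.14 in those fits (adjusted p from 0.054 to 0.263) and Cbx3, where lost, 0.29 to 0.51 (adjusted p from 0.0876 to 0.569). The calls over all genes were 194 higher and 564 lower, or 418 higher and 379 lower with library totals.

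Across the classes of the Lgr5+ WT libraries, the mean Setdb1 level was 21.4 CPM (SD 6.30, n = 2) in tuft-like, 12.9 (SD 1.63) in stem-like, 11.6 (SD 2.61) in enteroendocrine-like, 11.3 (SD 1.47) in dividing, 6.37 (SD 0.322) in goblet-like, 5.28 (SD 1.10) in enterocyte-like and 5.17 CPM (SD 3.20) in Paneth-like cells. Stem-like, enteroendocrine-like and dividing cells overlapped as neighbours in this order, as did enterocyte-like and Paneth-like cells, while tuft-like cells lay above stem-like and dividing above goblet-like cells in both libraries. Over the WT libraries of both experiments the difference of tuft-like from stem-like cells was not called (log2 fold change 0.48, SE 0.35, edgeR adjusted p = 0.294), and the lineage-traced WT tuft-like values were 12.9 and 0 CPM, from 1 and 0 UMIs. In the lineage-traced WT libraries stem-like (9.06 CPM, SD 1.15) and dividing cells (9.01, SD 1.15) again lay above enterocyte-like (4.12, SD 2.12) and Paneth-like cells (1.80, SD 0.796). Goblet-like cells there (8.21, SD 3.47) overlapped dividing cells, unlike in the Lgr5+ WT libraries. Paneth-like Setdb1 there was below the 3.41 to 4.72 CPM of the free RNA of the same libraries. A lineage-traced Paneth-like cell held at least 4379 marker UMIs per 10000, which lowers the CPM of every other gene. Against stem-like WT cells the median log2 fold change of all genes was -1.66 with library totals and -0.03 with TMM. In that TMM fit Setdb1 was not called in Paneth-like cells.

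Between dividing and stem-like WT cells, the genes called were the SUV39H writers and the HP1 readers. Over the 4 WT libraries, with 1 term per library, Suv39h1 (log2 fold change 0.63, SE 0.12, edgeR adjusted p = 2.49e-05), Suv39h2 (0.82, SE 0.16, adjusted p = 3.82e-05), Cbx5 (0.58, SE 0.06, adjusted p = 3.40e-11) and Cbx3 (0.40, SE 0.07, adjusted p = 4.47e-06) were higher in dividing cells. The 6 others, Setdb1 (-0.21, interval -0.47 to 0.05), Trim28 (-0.12), Atf7ip (0.07), Setdb2 (0.02), Ehmt1 (-0.16) and Ehmt2 (0.11), were not called. So 4 of 10 genes were called higher and 0 lower, against 35.9% of all genes called, 19.6% higher and 16.3% lower.

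Library by library, Suv39h1 stood at 18.8, 17.4, 16.8 and 25.3 CPM in dividing cells (Lgr5+ WT replicates 1 and 2, then lineage-traced WT replicates 1 and 2) and at 13.6, 10.0, 9.88 and 16.5 CPM in stem-like cells of the same libraries. Suv39h2 stood at 10.9, 9.53, 11.7 and 21.1 CPM in dividing and 5.79, 6.03, 5.76 and 5.50 CPM in stem-like cells, and Cbx5 at 97.5, 87.9, 159 and 153 against 64.3, 56.8, 121 and 93.5 CPM. All 3 were higher in dividing cells in 4 of 4 libraries, and so was Cbx3, at 239, 244, 1284 and 1391 against 194, 203, 984 and 880 CPM. The Suv39h2 values of lineage-traced WT replicate 2 rest on 15 and 2 UMIs, and Suv39h1 was not called without Lgr5+ WT replicate 2 (0.49, adjusted p = 0.0634).

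The promoters of these 4 genes are shown because the genes were called higher in dividing than in stem-like WT cells. Each window runs from 250 bases before to 50 bases after a RefSeq transcript start, in the direction of transcription, on GRCm38.p6. Of the 14 windows of the 10 genes, the window that holds a searched motif is printed for each of the 4, and capitals mark the motifs. Suv39h1 is at chrX:8074711-8075010 (minus), Suv39h2 at chr2:3474937-3475236 (minus), Cbx5 at chr15:103239803-103240102 (minus) and Cbx3 at chr6:51470366-51470665 (plus).

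Suv39h1 promoter: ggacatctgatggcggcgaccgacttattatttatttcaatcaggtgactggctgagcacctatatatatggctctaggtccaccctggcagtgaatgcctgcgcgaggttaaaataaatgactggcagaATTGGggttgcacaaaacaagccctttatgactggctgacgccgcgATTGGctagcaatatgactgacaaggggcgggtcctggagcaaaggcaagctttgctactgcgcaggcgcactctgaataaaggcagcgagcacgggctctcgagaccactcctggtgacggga
Suv39h2 promoter: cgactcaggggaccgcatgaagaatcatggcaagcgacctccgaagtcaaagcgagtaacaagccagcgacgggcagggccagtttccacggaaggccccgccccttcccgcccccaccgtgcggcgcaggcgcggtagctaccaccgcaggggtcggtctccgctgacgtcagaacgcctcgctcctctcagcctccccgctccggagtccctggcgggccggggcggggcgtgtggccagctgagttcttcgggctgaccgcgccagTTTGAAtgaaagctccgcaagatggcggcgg
Cbx5 promoter: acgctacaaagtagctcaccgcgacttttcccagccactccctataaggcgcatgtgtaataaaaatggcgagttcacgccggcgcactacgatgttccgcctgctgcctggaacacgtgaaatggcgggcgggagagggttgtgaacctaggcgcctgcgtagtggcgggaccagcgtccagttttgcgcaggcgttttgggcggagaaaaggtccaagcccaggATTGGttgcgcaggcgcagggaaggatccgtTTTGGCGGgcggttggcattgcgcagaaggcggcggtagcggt
Cbx3 promoter: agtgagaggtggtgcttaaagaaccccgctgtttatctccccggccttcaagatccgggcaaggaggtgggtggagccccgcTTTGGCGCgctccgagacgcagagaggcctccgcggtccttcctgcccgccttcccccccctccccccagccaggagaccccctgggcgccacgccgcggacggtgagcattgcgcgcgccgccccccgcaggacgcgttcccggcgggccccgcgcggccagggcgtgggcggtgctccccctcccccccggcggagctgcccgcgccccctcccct

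The letters searched, on both strands, were those of the cell cycle homology region (TTTGAA and TTCGAA), of E2F sites (TTTGGCGC, TTTCCCGC and TTTGGCGG) and of NF-Y sites (CCAAT), none of which contains another. TTTGAA was in the Suv39h2 window and in 17.9% of 32851 promoter windows, TTTGGCGC in the Cbx3 window and in 0.514%, TTTGGCGG in the Cbx5 window and in 0.56%, and CCAAT, or ATTGG on the other strand, in the Suv39h1 and Cbx5 windows and in 37.4%. TTCGAA (1.56% of windows) and TTTCCCGC (1.07%) were in none of the 14. Among the genes not called, CCAAT was in the Atf7ip, Setdb1 and Setdb2 windows and TTTGAA in that of Atf7ip. A match describes the letters in the window and is not evidence of binding.

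Enterocyte-like and goblet-like cells of the WT libraries held less of most of the 10 genes than stem-like cells. In enterocyte-like cells, the absorptive lineage, 6 of 8 genes tested were lower and 0 higher, where 52.0% of all genes were called, 24.8% lower and 27.2% higher. The readers Cbx3 (log2 fold change -1.75, SE 0.20, edgeR adjusted p = 9.19e-06) and Cbx5 (-1.71, SE 0.25, adjusted p = 0.000141) and the corepressor Trim28 (-1.80, SE 0.20, adjusted p = 4.41e-06) fell furthest. Setdb1 (-0.98, SE 0.33, adjusted p = 0.0214), Suv39h1 (-1.26, SE 0.37, adjusted p = 0.0104) and Ehmt1 (-0.78, SE 0.21, adjusted p = 0.00597) were lower as well, but Setdb1 and Suv39h1 lost the call without either Lgr5+ WT library (adjusted p from 0.0557 to 0.130) and Ehmt1 without Lgr5+ WT replicate 1 (adjusted p = 0.0508). The Trim28 levels behind this were 24.2, 15.5, 28.1 and 6.56 CPM in enterocyte-like against 79.2, 61.5, 105 and 68.7 CPM in stem-like cells, lower in 4 of 4 libraries.

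In goblet-like cells, the mucus-secreting lineage, the same 6 genes were lower and Ehmt2 was higher, where 56.6% of all genes were called, 29.0% lower and 27.7% higher. With library totals in place of TMM the share of higher calls among all genes went from 48.9% to 38.3% in goblet-like and from 52.3% to 38.3% in enterocyte-like cells. Trim28 (log2 fold change -0.98, SE 0.11, edgeR adjusted p = 8.41e-07), Suv39h1 (-1.28, SE 0.25, adjusted p = 0.000221), Cbx3 (-0.70, SE 0.09, adjusted p = 2.67e-06) and Cbx5 (-0.61, SE 0.12, adjusted p = 0.00028) kept their calls in each of the fits without 1 WT library. Setdb1 (-0.67, SE 0.21, adjusted p = 0.0125), Ehmt1 (-0.36, adjusted p = 0.0435) and Ehmt2 (0.54, SE 0.15, adjusted p = 0.00553) lost theirs without either Lgr5+ WT library (adjusted p from 0.0614 to 0.408). Atf7ip stayed near the stem-like level (-0.05, interval -0.36 to 0.25).

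Ehmt2 (G9a) was called higher in 4 of the 5 differentiated classes, while its value in enterocyte-like cells was -0.56 and was not called. It was called in Paneth-like (log2 fold change 0.86, SE 0.27, edgeR adjusted p = 0.0193), enteroendocrine-like (0.72, SE 0.27, adjusted p = 0.0171) and tuft-like cells (0.71, SE 0.27, adjusted p = 0.0258) beside goblet-like cells. In the Lgr5+ WT libraries it stood at 45.1 and 37.3 CPM in tuft-like, 36.4 and 55.6 CPM in enteroendocrine-like and 27 and 24.3 CPM in goblet-like cells, all above the 17.7 and 20.1 CPM of stem-like cells. In the lineage-traced WT libraries its goblet-like level of 31.1 and 25.9 CPM lay within the 21.4 and 35.7 CPM of stem-like cells. In Paneth-like cells it stood at 22.3 and 21.8 CPM in the Lgr5+ WT libraries but at 7.64 and 7.42 CPM in the lineage-traced WT libraries, below their stem-like cells, and with library totals in place of TMM its Paneth-like value turned to -0.79, as the median of all genes there moved to -1.66. The Paneth-like, enteroendocrine-like and tuft-like calls were each lost without either Lgr5+ WT library (adjusted p from 0.0844 to 0.659).

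Cbx3 was lower than in stem-like cells in these 3 classes as well. Paneth-like cells, which secrete defensins, had 2 of 8 tested genes called, with Cbx3 lower (-0.53, SE 0.13, edgeR adjusted p = 0.00253), against 26.6% of all genes called. Enteroendocrine-like cells, which make hormones, had 4 of 6 called, with Cbx3 (-1.35, SE 0.23), Cbx5 (-1.34, SE 0.26) and Trim28 (-0.85, SE 0.24) lower, against 49.7% of all genes. Tuft-like cells, with 3 libraries, had 5 of 8 called against 37.7%, with Atf7ip (0.88, SE 0.23, adjusted p = 0.000677) and Ehmt1 (0.65, SE 0.21, adjusted p = 0.00619) higher and Cbx3 (-0.77, SE 0.18, adjusted p = 8.78e-05) and Trim28 (-0.48, SE 0.20, adjusted p = 0.0483) lower. With library totals the Trim28 calls in enteroendocrine-like (-0.28) and tuft-like cells (-0.18) were lost, and the share of higher calls went from 50.3% to 2.16% in Paneth-like, from 47.8% to 78.9% in enteroendocrine-like and from 46.9% to 70.1% in tuft-like cells. The tuft-like call was lost without any 1 of the 3 libraries for Trim28 (adjusted p from 0.0773 to 0.171), without either Lgr5+ WT library for Ehmt1 (0.685 and 0.296) and without Lgr5+ WT replicate 2 for Atf7ip (0.207), and Cbx3 lost the Paneth-like call without lineage-traced WT replicate 1 (-0.38, adjusted p = 0.065).

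**Figure D4:**
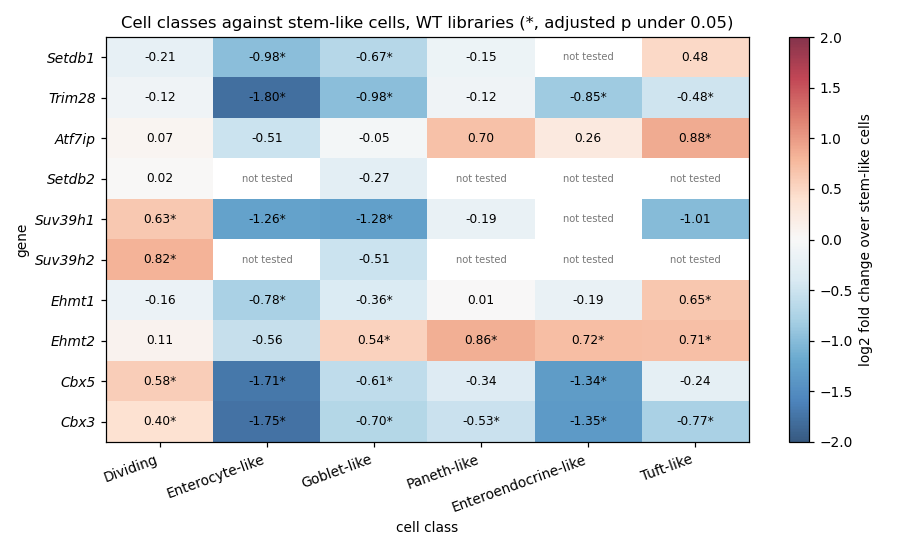
Log2 fold change of each cell class (horizontal axis) over stem-like cells for each of the 10 genes (vertical axis) in the WT libraries, written in each field and coloured from blue (lower) to red (higher), with a star where the edgeR adjusted p was under 0.05. The row of Ehmt2 is red in goblet-like, Paneth-like, enteroendocrine-like and tuft-like cells, while those of Cbx5 and Cbx3 are red in dividing cells only, Cbx3 at 0.40 and -1.75 in dividing and enterocyte-like cells.

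The Cbx3 level stood apart between the experiments, which was noticed after the values were seen. Stem-like WT cells held 198 CPM (SD 5.93, n = 2) in the Lgr5+ and 932 CPM (SD 73.5, n = 2) in the lineage-traced experiment, 4.70 times as much, and dividing cells 242 (SD 3.66) and 1338 CPM (SD 75.2), 5.53 times as much. For the 9 other genes the ratio of the means lay between 0.70 and 2.05, with Cbx5 at 1.77 in stem-like and 1.68 in dividing cells and Setdb2, a gene of few UMIs, at 2.05 and 1.34. Experiment, reporter allele, sort and depth differ together here and cannot be told apart.

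No gene of the wider pathway was called between the genotypes. 6 lists of related genes held 0 called genes over all kept cells in either experiment, by edgeR and by DESeq2. In brackets are the genes tested in the Lgr5+ fit, of the list symbols found among the genes counted. The lists were Setdb1 partners and the HUSH complex (13 of 14) and methyltransferase partners and related enzymes (8 of 8). Next came readers and heterochromatin proteins (12 of 12) and demethylases, most of them of H3K9 (11 of 11). Last were DNA methylation (9 of 9) and PRC2, the writer of H3K27 methylation (9 of 9). At an unadjusted edgeR p under 0.05 the lists held, in this order, 0, 0, 2, 1, 0 and 0 genes in the Lgr5+ experiment. In the lineage-traced one they held 0, 0, 1, 2, 2 and 0. Of all genes, 2.69% and 8.64% were called, and 2406 of 13662 and 2475 of 12205 had such a p. By DESeq2 no gene of the 6 lists reached that in the Lgr5+ experiment. The median log2 fold changes of the lists lay between -0.13 and 0.02 in the Lgr5+ experiment, beside -0.01 for all genes, and between -0.05 and 0.24 in the lineage-traced one, beside 0.01.

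Of each list the genes with the highest mean CPM are given. Sumo2, the modifier that TRIM28 attaches to bind SETDB1, had log2 fold changes of -0.04 (SE 0.09) in the Lgr5+ and 0.68 (SE 0.34, edgeR adjusted p = 0.292) in the lineage-traced experiment. Of the methyltransferase partners and related enzymes, Zfp644 had -0.14 and 0.30 and Mecom -0.22 and 0.19. The other HP1 protein, Cbx1, had -0.13 and 0.61 (SE 0.26, adjusted p = 0.195), and the remodeller Hells -0.10 and 0.44. Of the demethylase list, Kdm1a had -0.06 and 0.56 and Riox1, a ribosomal oxygenase that is not established as an H3K9 demethylase, -0.04 and 0.24, the methyl-CpG proteins Mbd2 and Mbd3 had -0.05 and 0.10 in the Lgr5+ and -0.23 and 0.22 in the lineage-traced experiment, and the PRC2 histone-binding subunits Rbbp4 and Rbbp7 had -0.13 and -0.07 in the Lgr5+ and 0.39 and 0.16 in the lineage-traced experiment. None of these genes was called.

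Between dividing and stem-like WT cells the lists did hold called genes. Of the readers and heterochromatin proteins, 5 of 12 were higher and 4 lower. Of PRC2, Ezh2 and Suz12 were higher with none of 8 lower. Setdb1 partners and HUSH had 2 higher and 4 lower of 12 and methyltransferase partners and related enzymes 0 and 2 of 8. Demethylases had 0 and 2 of 11 and DNA methylation 1 and 1 of 9. These edgeR counts stand beside 19.6% of all genes higher and 16.3% lower. DESeq2 called fewer of them, with 4 readers and heterochromatin proteins higher and 1 lower. It called 2 and 2 of the Setdb1 partners and HUSH and 0 and 1 of the methyltransferase partners and related enzymes. None of the demethylases or of DNA methylation were called by it. Ezh2 and Suz12 were called by both tools. By DESeq2 10.7% of all genes were higher and 5.06% lower.

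None of the genes next to Setdb1 on chromosome 3 was called in the Lgr5+ experiment. Of 10 neighbours 5 were tested, and Prune1 (log2 fold change -0.01), Mindy1 (0.14), Anxa9 (-0.15), Arnt (-0.07) and Ctss (-0.28, edgeR adjusted p = 0.237) were not called. Cers2, which overlaps Setdb1 by 75 bases on the opposite strand, had 0.10 (SE 0.10, adjusted p = 0.648). Of the neighbours 4 were tested in the lineage-traced experiment, where Ctss, which encodes a cathepsin, was lower (-0.96, SE 0.21, adjusted p = 0.0127). On the TMM scale of that fit Ctss stood at 23.8 and 25.9 CPM in WT and 13.6 and 12.0 CPM in the libraries labelled Setdb1-KO, and without that scaling the levels lay closer together, at 20.5 and 20.7 against 18.0 and 13.1 CPM, while Cers2 had -0.60 (SE 0.22, adjusted p = 0.124).

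The genes whose WT pattern was most like each member are given as a description over 24 sums of 1 library and 1 class, which share libraries and depth. On log2(CPM + 5), among 8906 genes, Setdb1 was most like Blnk (Pearson r 0.918), Dcakd (0.895) and Eif2b3 (0.892), Trim28 most like Irf2bp2 (0.908), Gart (0.904) and Tmpo (0.901), and Atf7ip most like Safb2 (0.905), Mepce (0.899) and Nrd1 (0.896). Ehmt1 was most like Ubtf and Zc3h14 (0.93 each) and Rnf20 (0.925), Ehmt2 most like Ssbp3 (0.917), Ash1l (0.908) and Casc3 (0.896), Cbx5 most like Tuba1b (0.95), Dnmt1 (0.938) and Hmgb1 (0.93), and Cbx3 most like Chtf8 (0.954), Gm16286 (0.95) and Ap4m1 (0.948). Within the 14 sums of the Lgr5+ libraries these 21 correlations lay between 0.795 and 0.931, with those of Cbx3 at 0.848, 0.795 and 0.863. The Cbx3 level stood apart between the experiments, and the part of this in its correlations was not tested.

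Some of the 10 genes overlap other annotated genes. Suv39h2 shares 8316 bases with Dclre1c and Trim28 6137 bases with Zbtb45, both on the opposite strand, and Suv39h1 shares 13449 bases with the antisense gene Gm14820, so that their counts rest on the strand information of the library kit.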

How the data were processed

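The authors deposited raw Cell Ranger matrices (per the labels mm10 and Cell Ranger 6.1.1, with Seurat 5.0.3 also named in the submitters' processing notes), which hold whole-number UMI counts per gene and barcode, unfiltered. Libraries were fixed-cell 10x 3' libraries of sorted GFP-positive ileal cells. Barcodes with 1000 (Lgr5+) or 500 (lineage-traced) to 18000 UMIs and under 5% mitochondrial UMIs were kept. No doublet caller was run, and barcodes under 100 UMIs served as free RNA. Classes were set by marker UMIs, with at least 3 marker UMIs, and fitted with at least 20 cells per library. Total counts per library ranged from 16881518 to 81876035.

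Counts summed per library were tested with edgeR 4.0.16 (quasi-likelihood, filterByExpr, TMM scaling, R 4.3.3), with Benjamini-Hochberg adjustment over all genes tested and a threshold of 0.05, and with DESeq2 1.42.0 as an alternative. The steps were tested on simulated data. Adjusted p-values in the text are edgeR's unless DESeq2 is named. Where nothing shows that libraries came from separate animals, p-values measure only the spread between these libraries. Alternatives covered scaling, low-count filters, cell filters, class cuts, leaving out each library and the replicate number as a block. The genes named are all 10 members, of each list the genes called over all kept cells and otherwise the 2 with the highest mean CPM, every tested neighbour of Setdb1, and the 3 genes most like Setdb1 and each member with a mean of at least 20 CPM. A gene that the rule names in the list of Setdb1 partners is not reported here. The members and lists were chosen with earlier results of these data known. Promoter sequences are from RefSeq (GRCm38.p6).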

Additional observations from a re-analysis of the deposited data

Results flagged for a closer look

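The effect of genotype on Setdb1 differed between the lineage-traced and the Lgr5+ experiment by a direct test of the difference, 1.09 on the log2 scale (SE 0.27, edgeR adjusted p = 0.0305). In the lineage-traced experiment, the genotype effect differed between enterocyte-like with goblet-like cells and stem-like with dividing cells by 0.69 for Trim28 (SE 0.22, edgeR adjusted p = 0.0253) and by 0.43 for Cbx3 (SE 0.14, edgeR adjusted p = 0.0284), in both cases also by a direct test of the difference. As given above, the Trim28 and Cbx3 calls were lost with DESeq2 and in most fits that left out a single library. The Setdb1 call was lost in several of those fits, and when only stem-like and dividing cells were summed.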

How the results depend on the processing

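The Lgr5+ Setdb1 fold change kept its direction under every alternative run. Without 1 library each it ran from -1.05 to -0.71 on the log2 scale, and 0 to 1 of the 10 genes were called over all kept cells and 0 to 1 over the classes. The labels give no shared source for libraries of the same replicate number, and these were not treated as paired. Differences between replicates correlated at -0.0571 across genes between the genotypes of the Lgr5+ and 0.576 in the lineage-traced experiment, and 2 pairs each cannot show whether pairing is absent. With the replicate block, Setdb1 was -0.86 (edgeR adjusted p = 0.0937), 0 genes were called over all cells and 2 over the classes, 2 were called in the difference between experiments, and calls over all genes went to 43 higher and 31 lower (Lgr5+) and to 943 and 1657 (lineage-traced), from 223 and 144, and 185 and 870.

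In the lineage-traced experiment, library totals called 6 of the 10 genes. The 1 call over its classes became 0 with DESeq2, with the class cut doubled and with it halved, and 0 to 1 without 1 library each. Equal class weights put Setdb1 at 0.57 and Suv39h2 at -1.39, and turned Setdb2 to -0.46, and in the Lgr5+ experiment Trim28 to -0.053. The lineage-traced enteroendocrine-like class behind these values held 0 to 3 UMIs of each of Setdb1, Setdb2 and Suv39h2 per library. Without it, chosen after seeing the data, they were 0.13, -0.38 and -0.31 (Setdb1, Suv39h2, Setdb2), and in the Lgr5+ experiment Trim28 was -0.076 and Ehmt2 -0.080. The Setdb1 difference between experiments was 0.92 to 1.41 without 1 library each and 1.08 in stem-like and dividing cells alone. There 0 genes were called, against 5 with library totals, 2 with DESeq2 and 0 to 3 without 1 library each. The 2 calls of the difference between lineage-traced classes became 0 with DESeq2 and 0 to 1 without 1 library each. Without 1 library each, genes called against stem-like cells numbered 3 to 8 in enterocyte-like, 4 to 7 in goblet-like, 1 to 2 in Paneth-like and 1 to 4 in tuft-like cells. Over all genes those fits called 1835 to 2226 higher and 1598 to 2235 lower of 7853 to 9100 (enterocyte-like). They called 1790 to 3374 and 1831 to 3110 of 8839 to 11085 (goblet-like). In Paneth-like cells they called 686 to 1062 and 669 to 1172 of 7281 to 10492, and in tuft-like cells 631 to 1852 and 609 to 1869 of 7177 to 10640. In Paneth-like cells 1 was called with the class cut doubled, against 839 higher and 1148 lower of 10779. With library totals 6 were, against 132 and 5993 of 8392, and Ehmt2 turned to -0.79. Without thinning, 7.445%, 4.073%, 1.137% and 1.946% of cells held a Setdb1 UMI (Lgr5+ WT and Setdb1-KO, lineage-traced WT and Setdb1-KO).

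Signs turned only for values that were not called, that Ehmt2 value apart. In the Lgr5+ experiment these were Trim28 (-0.058 to 0.11 without 1 library each, -0.020 in classified cells), Setdb2 (-0.14 to 0.33), Suv39h2 (-0.31 to 0.11) and Ehmt2 (-0.052 to 0.072, -0.0015 at the 10% mitochondrial limit, -0.0013 in classified cells, -0.00042 without Paneth-like cells). In the lineage-traced experiment they were Trim28 (-0.016 to 0.51 without 1 library each), Setdb2 (-0.0056 without barcodes near free RNA, -0.068 in classified cells), Suv39h2 (0.45 with library totals, 0.082 in classified cells, -0.27 to 0.085 without 1 library each), Ehmt2 (0.29 with library totals) and Setdb1 in stem-like (0.21 with the class cut halved) and goblet-like cells (-0.36 to 0.43 without 1 library each, 0.0095 without Setdb1-KO replicate 2). The limits to classified cells, without Paneth-like cells and without barcodes near free RNA, and to stem-like and dividing cells, were chosen after seeing the data. The cause of these changes was not tested. Calls over all genes without a low-count filter were 794 higher and 678 lower (Lgr5+) and 374 and 1064 (lineage-traced).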
